A study of Rattus norvegicus with 82 samples.

Results

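The proteasome genes were taken as every gene whose symbol starts with Psma, Psmb, Psmc, Psmd, Psme, Psmf or Psmg followed by a digit and whose mean raw count over all libraries was at least 10. Of 17337 genes in the table, 49 matched the symbol and 46 also met the count minimum. All 46 passed the filter on low counts, so that each of them was among the 11954 genes tested. The 3 left out were Psma3l with a mean of 0.0488 raw counts, the testis subunit gene Psma8 with 0.18, and Psmb11 of the thymus proteasome with 0.76. Just inside the minimum were Psmc3ip with 29.5 and Psmd10 with 29.9. Psma3l carried the same gene identifier as Psma3, so the reads of Psma3 may be split, and its level is uncertain. Psmc3ip matched by its letters only, since it codes for a meiotic recombination factor and not for a proteasome subunit.

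Total RNA was sequenced from cardiac myocytes of 41 rats, isolated from the left (LV) and the right ventricle (RV), which gave 82 libraries in 12 groups. The rats were F1 offspring of female Wistar Kyoto and male Lewis parents, and both sexes were used. A clip that did not constrict at first was placed on the pulmonary artery (PAB, a load on the RV) or on the aorta (AOB, a load on the LV) of weanling rats, and Sham rats were the controls. Hearts were collected in the compensated stage (H) or in the failing stage (F). Sham-H (7 rats), PAB-H (6) and AOB-H (6) were 11 weeks old, 7 weeks after surgery. Sham-F (9) and AOB-F (7) were 31 weeks old, 26 weeks after surgery. PAB-F (6) were 28 weeks old, 22 weeks after surgery, so that PAB-F was compared with shams of another age. These ages and times are those of the sample labels, and the age at surgery given in the surgery protocol and in the methods does not match them, so that the ages in weeks are uncertain. The cells were released with collagenase and separated from other cell types by centrifugation, and both ventricles of a heart were sequenced.

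The proteasome degrades proteins tagged with ubiquitin. Its barrel-shaped core is built from outer rings of alpha subunits (Psma genes), which gate the entrance, and inner rings of beta subunits (Psmb genes). Psmb5, Psmb6 and Psmb7 code for the standard catalytic subunits with chymotrypsin-like, caspase-like and trypsin-like activity. Interferon can induce Psmb8, Psmb9 and Psmb10, whose products take the places of the standard subunits in newly built cores and form the immunoproteasome, which cuts peptides suited to MHC class I presentation. The regulatory particle on the ends of the core contains ATPases that unfold substrates (Psmc genes) and subunits that bind, deubiquitinate or position them (Psmd genes). Psme1 and Psme2 form the interferon-inducible activator PA28, Psme3 the nuclear activator PA28 gamma and Psme4 the activator PA200, while Psmf1 codes for the inhibitor PI31. Cardiac myocytes rarely divide and depend on this system for the turnover of sarcomere proteins.

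Library totals ran from 6675287 to 19665439 counts with a median of 13074485. The 9 cardiac myocyte marker genes held 4.29% to 14.2% of the counts of all libraries, and the neutrophil genes S100a8 and S100a9 were at or near 0. Markers of other cells were present at low shares and differed between groups, and their counts or shares stand beside the main comparisons. Some LV libraries stood apart from their group in the proteasome genes themselves, namely LV Sham-H replicate 4, LV PAB-H replicate 2 and LV PAB-F replicate 5. LV AOB-H replicate 6 had the lowest total of all libraries and also stood apart. Counts of genes that passed the test are therefore also given without the first 3 of these where that moved them. All groups share the estimate of the spread, so that leaving these out can also move comparisons that do not hold them. In bulk libraries of this kind, fewer cells of a type and less RNA per cell cannot be told apart.

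Levels per gene length (FPKM, which divides by gene length and library total) differed widely among the 46 genes. Psme1 had the highest mean over all libraries with 302 FPKM, followed by Psmb5 with 193 FPKM and Psmb1, a non-catalytic beta subunit gene, with 181 FPKM. The lowest means were 2.43 FPKM for Psmc3ip, 4.21 FPKM for Psmd10, which codes for the assembly chaperone gankyrin, and 7.01 FPKM for Psmb8. The standard catalytic subunit genes Psmb5, Psmb7 (173 FPKM) and Psmb6 (127 FPKM) were all above the immunoproteasome genes Psmb10 (15.2 FPKM), Psmb9 (12.2 FPKM) and Psmb8. Between these lay the median of the 7 alpha subunit genes with 47.8 FPKM, of the 6 ATPase genes with 61.3 FPKM and of the 11 non-ATPase genes with 54.2 FPKM.

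Within the RV the levels were nearly flat over the 6 conditions, and within the LV they were not. The fold between the highest and the lowest group mean ran from 1.09 to 1.80 in the RV, with a median of 1.20, and was under 1.5 for 42 of the 46 genes. In the LV it ran from 1.06 to 3.43, with a median of 1.58, and reached 2 or more for 13 genes. These folds were not taken over all genes. By edgeR's quasi-likelihood test, 57.4% of all genes differed with age in the LV of Sham rats and 0.0502% in the RV (adjusted p under 0.05). The map of all differences shows the same contrast, with few dots in the banding columns and many in the columns that set the RV against the LV or the older against the younger LV.

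**Figure D1:**
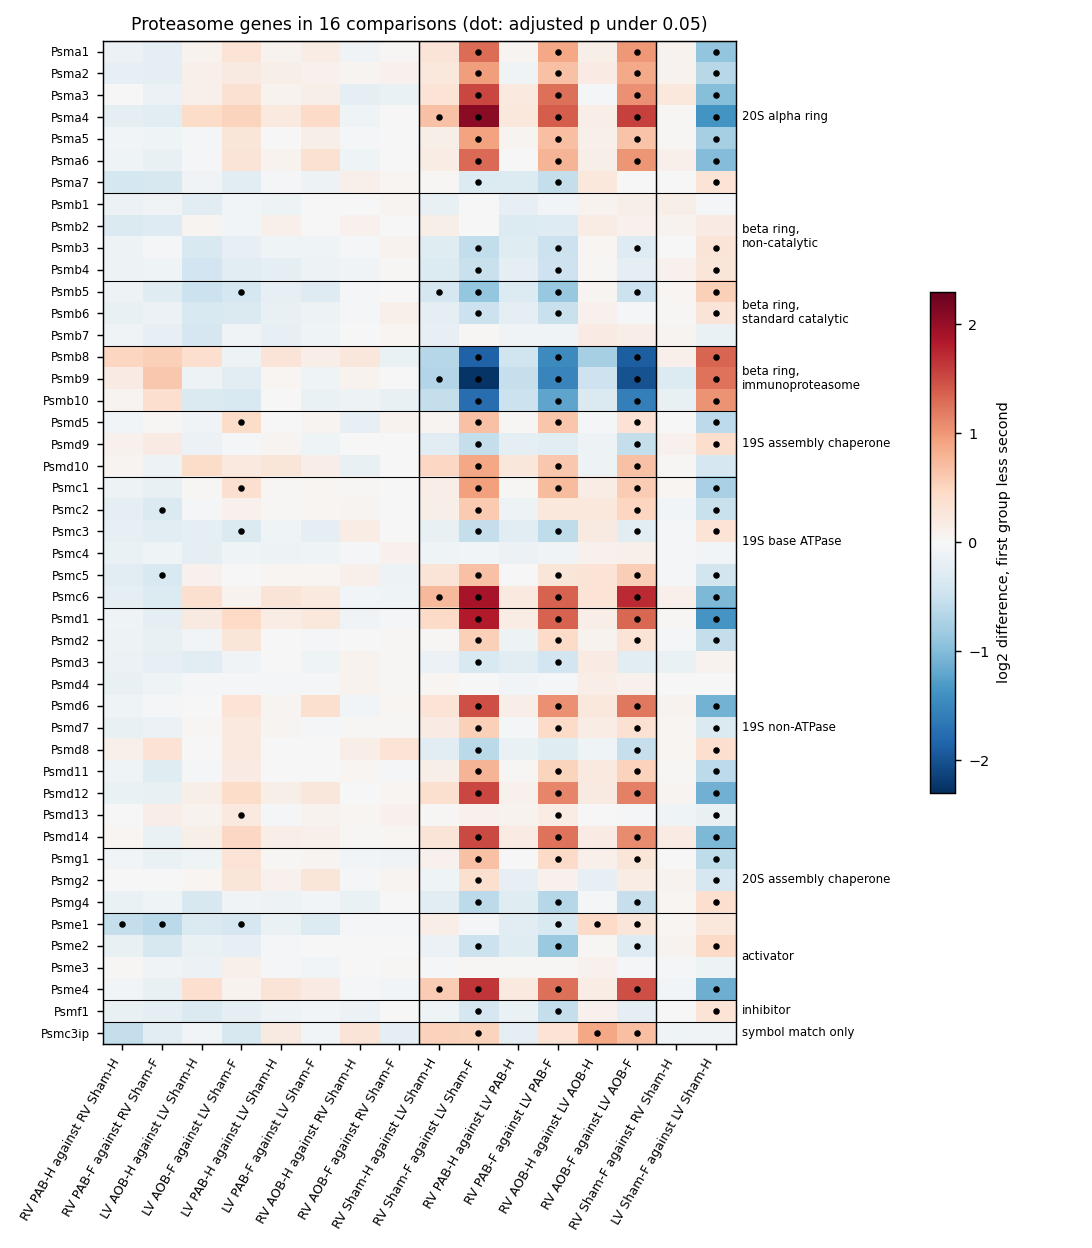
Heat map of the log2 difference (colour, first group less second) of the 46 proteasome genes (rows, by role) in 16 comparisons (columns), with a dot where the adjusted p of edgeR's quasi-likelihood test was under 0.05. Dots fill the RV against LV columns of the F stage (38, 35 and 33 genes) and the column of LV Sham-F against LV Sham-H (36 genes), and are sparse in the banding columns (0 to 6 genes).

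The question of whether the ventricles differ without banding was answered by the Sham rats. At 31 weeks, 23 of the 46 proteasome genes were higher and 15 were lower in the RV than in the LV of Sham-F, by edgeR's quasi-likelihood test at an adjusted p (Benjamini-Hochberg over all genes tested) under 0.05. In total that is a share not far above the background, since 74.3% of all 11954 genes passed, 35.6% as higher and 38.6% as lower in the RV. By direction, the share that was higher was above that of all genes and the share that was lower was below it. Whether these shares differ from those of all genes was not tested. The groups did not overlap for 25 proteasome genes, against 41.8% of all genes. The median log2 difference was 0.24 over the 46 genes and -0.07 over all genes. The SD of the differences was 0.997 over the 46 genes and 1.04 over all genes. The direction differed between the parts of the complex.

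Among the alpha ring genes, 6 of 7 were higher in the RV of Sham-F and 1 was lower, with a median log2 difference of 1.29. Normalized counts are raw counts divided by the library total times its TMM factor (trimmed mean of M-values), rescaled to the mean of these totals. Psma4 ran from 788 to 1069 normalized counts in RV Sham-F, with a median of 874, and from 158 to 276 in LV Sham-F, with a median of 203. The groups did not overlap, and the log2 difference was 2.07 ± 0.18 (SE, adjusted p = 1.67e-15). Psma4 was higher in the RV in 9 of 9 animals. Psma7 was the exception in the ring, with 704 to 1428 normalized counts in RV Sham-F (median 938) and 1012 to 1340 in LV Sham-F (median 1269), a log2 difference of -0.31 ± 0.12 (adjusted p = 0.0184). Its groups overlapped.

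The beta ring went the other way. Of Psmb1 to Psmb7, 4 were lower in the RV of Sham-F, 0 were higher, and the median log2 difference was -0.49. These 4 were the catalytic Psmb5 and Psmb6 and the non-catalytic Psmb3 (-0.57 ± 0.12, adjusted p = 1.8e-05) and Psmb4 (-0.51 ± 0.11, adjusted p = 2.58e-05). Psmb1, Psmb2 and Psmb7 had log2 differences between -0.00 and 0.02 that did not pass.

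Set against each other in the same library, the rings separated the ventricles of the F stage. The balance taken here is the mean log2 CPM (counts scaled to the TMM-adjusted library total) of Psma1 to Psma7 less that of Psmb1 to Psmb7. It lay between -0.629 and -0.356 in all 41 RV libraries, and between -2.31 and -0.414 in the 41 LV libraries. In LV Sham-F it ran from -2.31 to -1.47 with a median of -1.91, so that every LV Sham-F library was below every RV library. The alpha mean was 5.01 in LV Sham-F and 6.12 in RV Sham-F, and the beta mean was 6.91 and 6.59 log2 CPM (means over the 9 libraries of each group). All LV libraries of PAB-F and AOB-F were also below every RV library. In PAB-F the alpha mean was 5.14 in the LV and 5.91 in the RV, and the beta mean was 6.81 and 6.42. In AOB-F the alpha mean was 5.18 in the LV and 6.13 in the RV, but the beta means were close, at 6.71 and 6.64. The median log2 difference of Psmb1 to Psmb7, RV less LV, was -0.48 in PAB-F and -0.04 in AOB-F. In the compensated stage the medians were -0.819 in LV Sham-H, -0.583 in LV PAB-H and -0.503 in LV AOB-H, and 5 of 7, 2 of 6 and 1 of 6 LV libraries lay below every RV library. In LV Sham-H these were replicates 2 to 6, with -1.10 in replicate 3 and -1.28 in replicate 5. LV Sham-H replicate 4 (-2.19) and LV PAB-H replicate 2 (-1.73) lay within the range of LV Sham-F, and LV PAB-F replicate 5 (-0.85) lay above it.

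**Figure D2:**
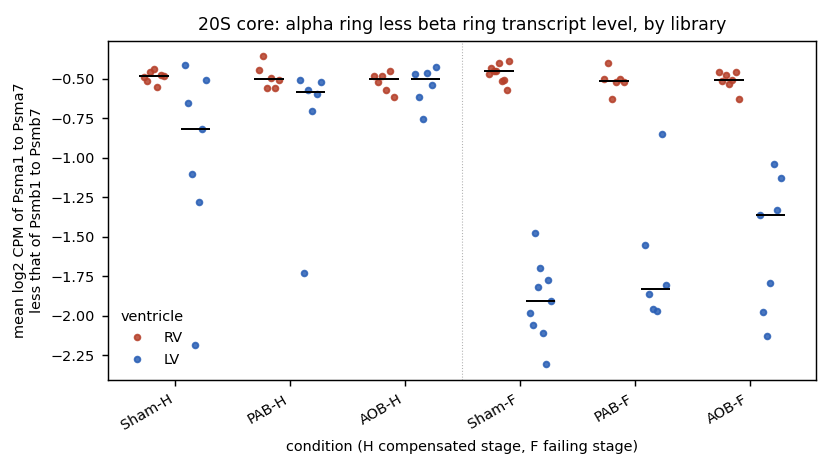
Alpha ring less beta ring transcript level (mean log2 CPM of Psma1 to Psma7 less that of Psmb1 to Psmb7, y axis) of each library by condition (x axis), with RV and LV points in separate colours and bars at the medians. The RV libraries sit between -0.629 and -0.356 in every condition, and the LV libraries of Sham-F lie between -2.31 and -1.47.

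Most genes of the regulatory particle were higher in the RV. Among the 6 ATPase genes, 4 were higher in the RV of Sham-F and 1 was lower, with a median log2 difference of 0.64. Psmc6 ran from 1377 to 1895 normalized counts (median 1603) in RV Sham-F and from 323 to 599 (median 441) in LV Sham-F. The log2 difference of Psmc6 was 1.89 ± 0.19 (adjusted p = 3.46e-14), and its groups did not overlap. Psmc3 was the ATPase gene that was lower in the RV, at -0.55 ± 0.09 (adjusted p = 3.08e-07), and Psmc4 did not pass at -0.07 ± 0.08.

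Among the 11 non-ATPase genes, 7 were higher and 2 were lower, with a median of 0.56. Psmd1, which codes for the largest scaffold subunit of the base, ran from 4486 to 5055 normalized counts (median 4905) in RV Sham-F and from 975 to 2234 (median 1236) in LV Sham-F. Its log2 difference was 1.83 ± 0.18 (adjusted p = 6.51e-14). Psmd14, the deubiquitinase that strips the ubiquitin chain from substrates, ran from 804 to 945 (median 866) and from 224 to 410 (median 293), a log2 difference of 1.52 ± 0.17 (adjusted p = 1.89e-12). Psmd3 (-0.36 ± 0.10) and Psmd8 (-0.62 ± 0.11) were the 2 that were lower. Of the assembly chaperones of the regulatory particle, Psmd5 (0.67 ± 0.12) and Psmd10 (0.89 ± 0.20) were higher and Psmd9 (-0.55 ± 0.11) was lower. Of those of the core, Psmg1 (0.67 ± 0.11) and Psmg2 (0.37 ± 0.11) were higher and Psmg4 (-0.60 ± 0.14) was lower.

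The activators split. Psme4 ran from 8839 to 11843 normalized counts (median 10451) in RV Sham-F and from 2619 to 4513 (median 2997) in LV Sham-F, without overlap, and its log2 difference was 1.64 ± 0.18 (adjusted p = 2.1e-12). Psme2 was lower in the RV at -0.50 ± 0.12 (adjusted p = 0.000249), with 318 to 444 normalized counts (median 360) against 365 to 703 (median 525). Psme1 and Psme3 did not pass, at -0.05 ± 0.11 and 0.04 ± 0.07. The inhibitor gene Psmf1 was lower in the RV at -0.39 ± 0.10 (adjusted p = 0.000234).

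The immunoproteasome genes had the largest negative differences of all 46 genes, and all 3 were lower in the RV of Sham-F. Psmb9 ran from 35.6 to 112 normalized counts (median 66.1) in RV Sham-F and from 182 to 406 (median 331) in LV Sham-F, a log2 difference of -2.25 ± 0.23 (adjusted p = 1.96e-13). Psmb8 ran from 32.2 to 96.1 (median 48.1) and from 111 to 271 (median 199.9), a log2 difference of -1.86 ± 0.24 (adjusted p = 1.01e-10). Psmb10 ran from 77.4 to 155 (median 118) and from 249 to 838 (median 371), a log2 difference of -1.75 ± 0.19 (adjusted p = 1.18e-12). The groups of each of these genes did not overlap, and each was lower in the RV in 9 of 9 animals.

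The standard catalytic genes did not share that size. Psmb5 ran from 1838 to 2034 normalized counts (median 1920) in RV Sham-F and from 2626 to 5285 (median 3161) in LV Sham-F, without overlap, a log2 difference of -0.89 ± 0.12 (adjusted p = 1.73e-09). Psmb6 ran from 1024 to 1421 (median 1221) and from 1039 to 2412 (median 1722), a log2 difference of -0.49 ± 0.12 (adjusted p = 0.000216), and its groups overlapped. Psmb7 ran from 1937 to 2553 (median 2444) and from 1309 to 3047 (median 2275), a log2 difference of 0.02 ± 0.11 (adjusted p = 0.873). Without the immunoproteasome genes, 23 of the other 43 proteasome genes were higher and 12 were lower, with a median of 0.51.

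**Figure D3:**
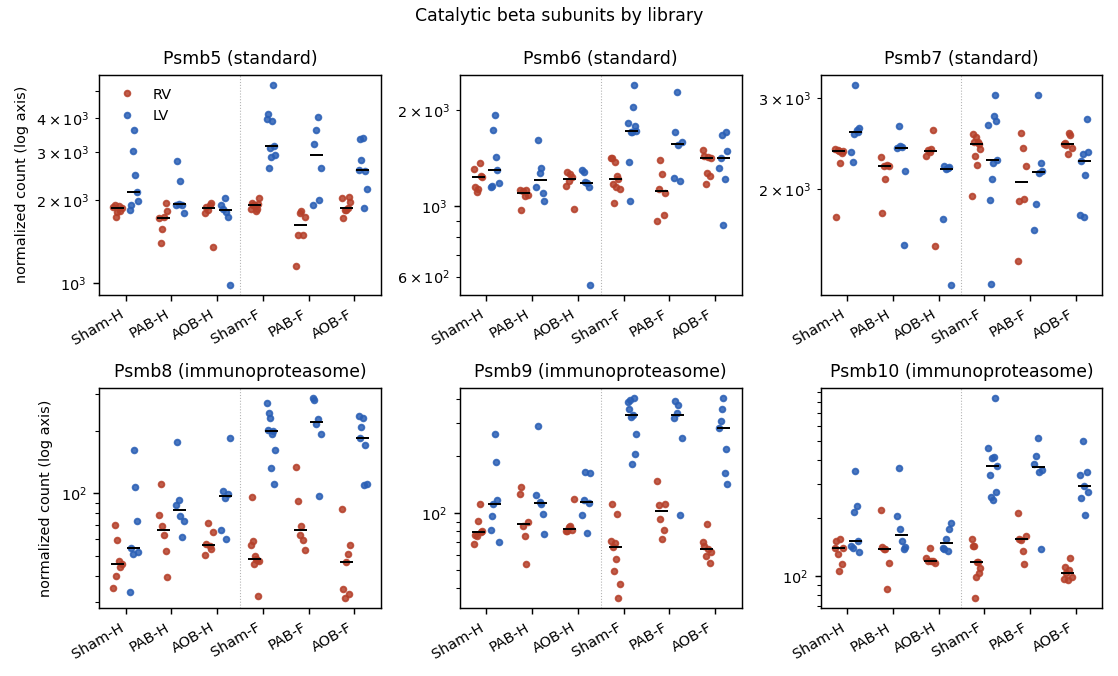
Normalized counts (y axes, log scale) of the standard (top row) and immunoproteasome (bottom row) catalytic subunit genes in each library by condition (x axes), with RV and LV points in separate colours and bars at the medians. In Sham-F the LV points of Psmb8 (111 to 271), Psmb9 (182 to 406) and Psmb10 (249 to 838) all lie above the RV points, and those of Psmb7 overlap.

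Markers of other cell types also differed between the ventricles of Sham-F, where 35.6% of all genes were higher and 38.6% lower in the RV. The 6 endothelial markers held 0.192% to 0.335% of the counts in LV Sham-F and 0.0595% to 0.102% in RV Sham-F, and all 6 were lower in the RV. Of the 8 macrophage markers 4 were lower in the RV, of 6 fibroblast markers tested 3, and of 5 mural cell markers 3. The macrophage share ran from 0.00541% to 0.0187% in LV Sham-F and from 0.00189% to 0.00619% in RV Sham-F. For fibroblast markers the shares were 0.0371% to 0.114% and 0.0138% to 0.0476%, and for mural cell markers 0.0247% to 0.0602% and 0.0149% to 0.0288%. Of the 9 cardiac myocyte markers, 6 were higher and 1 was lower in the RV, with shares of 10.7% to 14.2% in RV Sham-F and 6.68% to 9.47% in LV Sham-F. The lymphocyte share was at most 0.000682% in these groups. The part of these cells in the differences of the proteasome genes was not tested.

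The promoters of the immunoproteasome genes and of Psme2 are printed to show where motifs of interferon response lie next to these genes, and those of Psmb5 and Psmb6 to set the standard catalytic genes beside them. The sequences come from RefSeq on build GRCr8, each read 5′ to 3′ on the strand of the gene, and the window of a gene covers 250 bases before its start and 50 after. Capitals mark a match, on either strand, to the interferon-stimulated response element (GAAA, 2 bases of any kind, GAAA) or the gamma-activated sequence TTCNNNGAA in the immunoproteasome genes and Psme2, and to the antioxidant response element core TGACNNNGC in Psmb5 and Psmb6. Psmb8 lies at chr20:4657022-4657281 (minus strand), Psmb9 at chr20:4668850-4668999 (plus strand) and Psmb10 at chr19:50743293-50743442 (minus strand). Psme2 lies at chr15:33052752-33052901 (minus strand), Psmb5 at chr15:32047380-32047479 (minus strand) and Psmb6 at chr10:55737788-55737887 (plus strand).
Psmb8: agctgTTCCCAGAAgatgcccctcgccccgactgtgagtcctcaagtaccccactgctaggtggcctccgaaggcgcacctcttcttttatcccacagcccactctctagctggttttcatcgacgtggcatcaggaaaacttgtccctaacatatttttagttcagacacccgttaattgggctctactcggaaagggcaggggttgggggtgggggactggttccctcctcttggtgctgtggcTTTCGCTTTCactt
Psmb9: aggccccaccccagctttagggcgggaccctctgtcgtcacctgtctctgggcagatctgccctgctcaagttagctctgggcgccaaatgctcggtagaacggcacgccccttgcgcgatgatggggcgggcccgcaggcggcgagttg
Psmb10: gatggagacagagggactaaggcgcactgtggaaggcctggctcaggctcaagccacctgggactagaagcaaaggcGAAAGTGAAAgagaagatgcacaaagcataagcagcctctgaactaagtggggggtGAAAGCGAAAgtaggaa
Psme2: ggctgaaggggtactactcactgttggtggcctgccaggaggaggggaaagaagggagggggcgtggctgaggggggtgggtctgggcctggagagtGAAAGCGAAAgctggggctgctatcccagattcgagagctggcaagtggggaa
Psmb5: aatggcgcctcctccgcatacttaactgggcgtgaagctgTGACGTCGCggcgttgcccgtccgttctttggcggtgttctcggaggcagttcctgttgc
Psmb6: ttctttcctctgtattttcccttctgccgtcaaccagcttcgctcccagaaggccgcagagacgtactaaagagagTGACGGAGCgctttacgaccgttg

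In the stretches shown, Psmb10 held the interferon-stimulated response element 2 times, Psme2 held it 1 time, and Psmb8 held it next to its start and held the gamma-activated sequence at the far end. The Psmb9 stretch held none of these letters. In RefSeq, Psmb8 lies between Tap2 and Tap1, and Psmb9 between Tap1 and RT1-DMb, and the starts of Psmb9 and Tap1 face away from each other with 457 bases between them. Tap1 and Tap2 code for the transporter that carries proteasome products to MHC class I. A promoter was found for 42 of the 46 proteasome genes, all but Psma7, Psmd6, Psmd12 and Psmd14. The interferon-stimulated response element was found in 7 of these 42 promoters (Psma4, Psmb3, Psmb8, Psmb10, Psmd7, Psme2, Psmg4) and in 3.77% of all 27457 promoters. The gamma-activated sequence was found in 4 (Psmb8, Psmc6, Psmd3, Psmd7) against 8.68%, and the antioxidant response element core in 8 (Psma3, Psmb2, Psmb5, Psmb6, Psmd1, Psmd3, Psmd9, Psme4) against 12.2%. Genes with a motif were found in both directions. Of the 7 with the interferon-stimulated response element, 2 were higher and 5 were lower in the RV of Sham-F, and of the 8 with the antioxidant response element core 3 were higher, 4 were lower and 1 did not pass.

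The banded rats of the F stage gave the same comparison in other animals. In PAB-F, 21 proteasome genes were higher and 14 were lower in the RV than in the LV, against 61.1% of all genes (32.1% higher, 29% lower). The median was 0.13, and 10 of the 46 did not overlap, against 23.2% of all genes. In AOB-F, 23 were higher and 10 were lower, against 67.1% of all genes (32% higher, 35.1% lower). The median was 0.22, and 18 of the 46 did not overlap, against 30.3% of all genes. The share of the proteasome genes that passed was above that of all genes in PAB-F and near it in AOB-F. The share that was higher was above that of all genes in both, and the share that was lower was below it in AOB-F. Whether these shares differ from those of all genes was not tested. Without the 3 libraries that stood apart, PAB-F gave 22 higher and 16 lower.

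In all 3 conditions of the F stage, 20 proteasome genes were higher in the RV and 8 were lower, against 25.6% of all genes that were higher in all 3 and 24.1% that were lower. The comparisons share no libraries. The 20 were Psma1 to Psma6, Psmc1, Psmc5, Psmc6, Psmd1, Psmd2, Psmd5, Psmd6, Psmd7, Psmd10, Psmd11, Psmd12, Psmd14, Psme4 and Psmg1. The 8 were Psmb3, Psmb5, Psmb8, Psmb9, Psmb10, Psmc3, Psme2 and Psmg4. Psmb1, Psmb2, Psmb7, Psmc4, Psmd4 and Psme3 passed in none of the 3. Psme1 was lower in the RV of PAB-F (-0.35 ± 0.13, adjusted p = 0.02) and higher in the RV of AOB-F (0.29 ± 0.12, adjusted p = 0.0358). The remaining 11 passed in 1 or 2 conditions.

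Psmb9 ran from 73.1 to 147 normalized counts (median 102) in RV PAB-F and from 97.9 to 391 (median 329) in LV PAB-F, a log2 difference of -1.52 ± 0.28 (adjusted p = 3.47e-06). In AOB-F it ran from 54.5 to 87.6 (median 64.8) in the RV and from 142 to 407 (median 281) in the LV, a log2 difference of -2.01 ± 0.26 (adjusted p = 1.22e-09). The groups overlapped in PAB-F and did not overlap in AOB-F.

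Psmb8 ran from 53.6 to 134 (median 66.4) in RV PAB-F and from 97.1 to 288 (median 220.4) in LV PAB-F, a log2 difference of -1.46 ± 0.28 (adjusted p = 8.88e-06), and in AOB-F its log2 difference was -1.89 ± 0.27 (adjusted p = 9.21e-09). Psmb10 had log2 differences of -1.21 ± 0.23 (adjusted p = 9.05e-06) in PAB-F and -1.58 ± 0.22 (adjusted p = 5.67e-09) in AOB-F. The 3 immunoproteasome genes were lower in the RV in 6 of 6 PAB-F animals and in 7 of 7 AOB-F animals.

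Of the standard catalytic genes, Psmb5 was lower in the RV of PAB-F by a log2 difference of -0.87 ± 0.15 (adjusted p = 1.93e-06) and of AOB-F by -0.49 ± 0.14 (adjusted p = 0.00167). Psmb6 was lower in PAB-F at -0.51 ± 0.15 (adjusted p = 0.0023) and did not pass in AOB-F at -0.04 ± 0.14. With a correction for gene length it did not pass in PAB-F either, at -0.24 (adjusted p = 0.0803). Psmb7 passed in neither, at -0.08 ± 0.13 and 0.16 ± 0.12. Psmb5 was the standard catalytic gene that was lower in the RV in each condition of the F stage.

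Psma4 was the alpha gene with the largest difference in both. It ran from 669.8 to 858 (median 778) in RV PAB-F against 187 to 594 (median 244) in LV PAB-F, a log2 difference of 1.38 ± 0.22 (adjusted p = 4.12e-07), and in AOB-F its log2 difference was 1.56 ± 0.20 (adjusted p = 1.22e-09). Psmc6 had log2 differences of 1.35 ± 0.22 (adjusted p = 8.22e-07) and 1.72 ± 0.21 (adjusted p = 2.48e-10). Next to them were Psmd1 in PAB-F at 1.35 ± 0.22 (adjusted p = 6.95e-07) and Psme4 in AOB-F at 1.49 ± 0.21 (adjusted p = 6.3e-09). The alpha genes Psma1 to Psma6 were higher in the RV in both conditions, while Psma7 was lower in PAB-F at -0.55 ± 0.15 and did not pass in AOB-F at -0.00 ± 0.14. The endothelial share ran from 0.156% to 0.366% in LV PAB-F against 0.0826% to 0.189% in RV PAB-F, and from 0.187% to 0.398% in LV AOB-F against 0.0727% to 0.101% in RV AOB-F. Of the markers, 5 of 6 endothelial, 3 of 8 macrophage and 3 of 5 mural cell genes were lower in the RV of PAB-F, 2 fibroblast genes were higher and 1 was lower, and 5 of 9 cardiac myocyte genes were higher and 1 was lower. In the RV of AOB-F, 6 of 6 endothelial, 7 of 8 macrophage, 4 of 6 fibroblast and 3 of 5 mural cell genes were lower and 6 of 9 cardiac myocyte genes were higher. Of all genes 29% were lower and 32.1% higher in the RV of PAB-F, and 35.1% and 32% in that of AOB-F. The part of the other cells in the differences was not tested. With raw library totals in place of TMM (trimmed mean of M-values) factors, AOB-F gave 17 higher and 14 lower.

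In the compensated stage fewer proteasome genes differed between the ventricles. In Sham-H, 3 were higher and 2 were lower in the RV, against 21% of all genes. With the animal as a block, 7 were higher and 5 were lower. Upper quartile factors gave 3 higher and 5 lower, raw library totals 3 and 6, and the fit without the 3 libraries that stood apart 3 and 0. Psmc6 ran from 1262 to 1612 normalized counts (median 1475) in RV Sham-H and from 269 to 1417 (median 908) in LV Sham-H, a log2 difference of 0.74 ± 0.21 (adjusted p = 0.00782). Psma4 differed by 0.67 ± 0.20 (adjusted p = 0.014) and Psme4 by 0.59 ± 0.20 (adjusted p = 0.032). The lower genes were Psmb9 at -0.68 ± 0.26 (adjusted p = 0.049) and Psmb5 at -0.39 ± 0.14 (adjusted p = 0.0378). Without LV Sham-H replicate 4 none of the 5 passed, and without LV Sham-H replicate 5 only 1 did. The counts were 10 without LV Sham-H replicate 1 or 7, 3 without RV Sham-H replicate 3 or 6, and 2 without RV Sham-H replicate 7. Of the endothelial markers 5 of 6 were lower in the RV here too, with shares of 0.101% to 0.286% in LV Sham-H and 0.0706% to 0.102% in RV Sham-H.

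In PAB-H none of the 46 differed between the ventricles by the same test, against 0.125% of all genes, and 4 were under an unadjusted p of 0.05, while DESeq2 also gave 0. In AOB-H, 2 were higher and none was lower, against 7.98% of all genes. These were Psme1 at 0.45 ± 0.13 (adjusted p = 0.0224) and Psmc3ip at 0.88 ± 0.28 (adjusted p = 0.0356). Psme1 ran from 3443 to 5028 normalized counts (median 4560) in RV AOB-H and from 1893 to 3703 (median 3498) in LV AOB-H, so that the groups overlapped. With the animal as a block, 3 were higher and 1 was lower in AOB-H, and without the 3 libraries that stood apart, none of which is in AOB-H, 2 were higher and 1 was lower. Of the endothelial markers 5 of 6 were lower in the RV of AOB-H, with shares of 0.0666% to 0.241% against 0.121% to 0.483% in the LV, and their part was not tested. Neither gene passed without LV AOB-H replicate 6 or without RV AOB-H replicate 5, and 1 gene passed without LV AOB-H replicate 3 or 5 or RV AOB-H replicate 2, 3 or 4. Psmb8 had a log2 difference of -0.77 ± 0.29 in AOB-H that did not pass (adjusted p = 0.0901).

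The change with age was tested within each ventricle of the Sham rats. In the RV, none of the 46 proteasome genes passed between 11 and 31 weeks, against 0.0502% of all genes, and none had an unadjusted p under 0.05. DESeq2 also gave 0. In the LV, 14 were higher and 22 were lower at 31 weeks, against 57.4% of all genes (27.8% higher, 29.6% lower). The median log2 difference was -0.16 over the 46 genes and 0.03 over all genes. Only 3 of the 46 (Psma5, Psmc2 and Psmc5) did not overlap, against 1.68% of all genes. The LV thus held most of the age differences among these genes in the tests within each ventricle, and the difference between the ventricles was tested directly below. The Sham rats of 11 and 31 weeks were different animals. Age therefore cannot be told apart from other differences between these sets of animals, such as when their cells were prepared.

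The parts of the complex again took different directions in the LV. The alpha ring had 6 genes lower and 1 higher at 31 weeks (median -0.91), and the 17 ATPase and non-ATPase genes had 12 lower and 2 higher (median -0.52). Psmb1 to Psmb7 had 4 higher and none lower (median 0.29), and all 3 immunoproteasome genes were higher (median 1.25).

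Psma4 ran from 196 to 880.4 normalized counts (median 565) in LV Sham-H and from 158 to 276 (median 203) in LV Sham-F, a log2 difference of -1.38 ± 0.19 (adjusted p = 1.26e-07). Psmd1 differed by -1.35 ± 0.19 (adjusted p = 1.32e-07) and Psme4 by -1.12 ± 0.19 (adjusted p = 2.81e-06). The groups of Psma4 overlapped through the low libraries of LV Sham-H. Psmb8 ran from 33.7 to 161 (median 54.8) in LV Sham-H and from 111 to 271 (median 199.9) in LV Sham-F, a log2 difference of 1.33 ± 0.25 (adjusted p = 9.27e-06). Psmb9 differed by 1.25 ± 0.24 (adjusted p = 1.54e-05) and Psmb10 by 1.03 ± 0.20 (adjusted p = 2.18e-05). These were the largest positive differences among the 46 genes.

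Psmb5 was higher at 31 weeks by 0.55 ± 0.13 (adjusted p = 0.000404) and Psmb6 by 0.30 ± 0.13 (adjusted p = 0.0409), while Psmb7 had a difference of -0.15 ± 0.12 that did not pass (adjusted p = 0.262). With a correction for gene length the Psmb6 difference was 0.07 and did not pass (adjusted p = 0.58). Psmb6 also did not pass without the filter on low counts (adjusted p = 0.136) or without some single libraries of either age. In the RV the corresponding differences of Psmb8, Psmb9 and Psmb10 were 0.13, -0.32 and -0.18 on the log2 scale, each with an adjusted p of 0.999. Of the 6 endothelial markers 3 were higher in LV Sham-F than in LV Sham-H, as were 4 of 8 macrophage, 3 of 5 mural cell and 2 of 6 fibroblast markers, while 6 of 9 cardiac myocyte markers were lower and 1 was higher. Of all genes 27.8% were higher and 29.6% lower. With a correction for gene length, 9 proteasome genes were higher and 25 were lower, and without the 3 libraries that stood apart 15 and 23.

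The difference between the ventricles was not the same in the Sham rats of 11 and of 31 weeks. The signed RV less LV log2 difference was more positive at 31 than at 11 weeks for 20 proteasome genes and more negative for 5, against 41.6% of all genes (23% more positive, 18.6% more negative). The median was 0.19 over the 46 genes and -0.03 over all genes. Psma4 changed by 1.40 ± 0.27 (adjusted p = 0.000227), Psmd1 by 1.39 ± 0.27 (adjusted p = 0.000279) and Psmd14 by 1.23 ± 0.25 (adjusted p = 0.000391). Psmb9 changed by -1.57 ± 0.34 (adjusted p = 0.000617), Psmb10 by -1.21 ± 0.29 (adjusted p = 0.00104) and Psmb8 by -1.21 ± 0.35 (adjusted p = 0.0053). Of the standard catalytic genes Psmb5 passed at -0.50 ± 0.19 (adjusted p = 0.0258), and Psmb6 (-0.28 ± 0.18) and Psmb7 (0.22 ± 0.17) did not. Psmb5 did not pass with a correction for gene length (-0.31, adjusted p = 0.101) or without the filter on low counts (adjusted p = 0.0688). It also did not pass without LV Sham-H replicate 1, 2 or 7 or without LV Sham-F replicate 7. For Psmb9 (-0.68 in Sham-H, -2.25 in Sham-F) and Psmb5 (-0.39 and -0.89) a more negative value meant a wider gap between the ventricles at 31 weeks. Without the 3 libraries that stood apart, 21 were more positive and 12 more negative. Of the markers, 3 endothelial, 2 macrophage, 2 fibroblast and 1 mural cell gene were more negative and 3 cardiac myocyte genes more positive, and their part was not tested.

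The level of the immunoproteasome against the standard catalytic subunits was taken per library as the summed FPKM of Psmb8, Psmb9 and Psmb10 in percent of that of Psmb5, Psmb6 and Psmb7. In the RV it stayed in single digits in all but 1 library. It ran from 3.9% to 5.41% (median 4.32%) in RV Sham-H, from 3.2% to 8.32% (median 5.16%) in RV PAB-H and from 3.92% to 6.91% (median 4.25%) in RV AOB-H. In the F stage it ran from 2.71% to 5.26% (median 3.81%) in RV Sham-F, from 4.47% to 12.4% (median 5.53%) in RV PAB-F and from 3.19% to 3.78% (median 3.38%) in RV AOB-F. The RV libraries of AOB-F were the closest to each other.

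In the LV the ratio ran from 3.94% to 7.82% (median 4.86%) in Sham-H, from 4.98% to 10.5% (median 5.89%) in PAB-H and from 4.69% to 16.6% (median 6.32%) in AOB-H. At the F stage it ran from 6.83% to 15.9% (median 10.6%) in LV Sham-F, from 5.39% to 17.9% (median 10.9%) in LV PAB-F and from 7.65% to 13.8% (median 9.37%) in LV AOB-F. All LV libraries of Sham-F and AOB-F lay above all RV libraries of the same condition, and the PAB-F libraries of the ventricles overlapped. The 16.6% belonged to LV AOB-H replicate 6, in which endothelial markers held 0.483% of the counts, the highest share in its group.

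**Figure D4:**
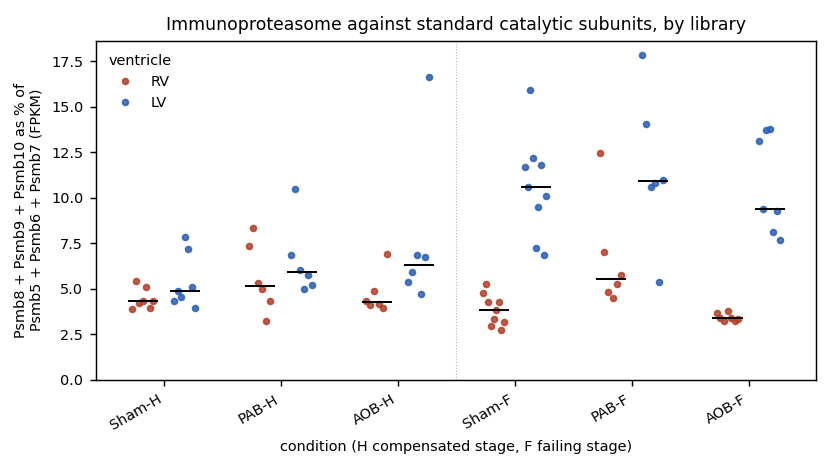
Summed FPKM of Psmb8, Psmb9 and Psmb10 in percent of that of Psmb5, Psmb6 and Psmb7 (y axis, from 0) in each library by condition (x axis), with RV and LV points in separate colours and bars at the medians. LV medians of the F stage lie between 9.37% and 10.9%, and RV medians of all conditions between 3.38% and 5.53%.

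The banding comparisons asked what load on a ventricle changes. Those of one ventricle and stage share their Sham libraries. In the loaded RV, Psme1 was the proteasome gene that was lower in both stages. In PAB-H it ran from 2234 to 3765 normalized counts (median 3139), and in RV Sham-H from 4022 to 5170 (median 4456). The groups did not overlap, and the log2 difference was -0.55 ± 0.13 (adjusted p = 0.00962). In PAB-F it ran from 1937 to 4012 (median 3158), and in RV Sham-F from 4151 to 5625 (median 4789). These groups did not overlap either, and the log2 difference was -0.61 ± 0.12 (adjusted p = 0.000395).

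**Figure D5:**
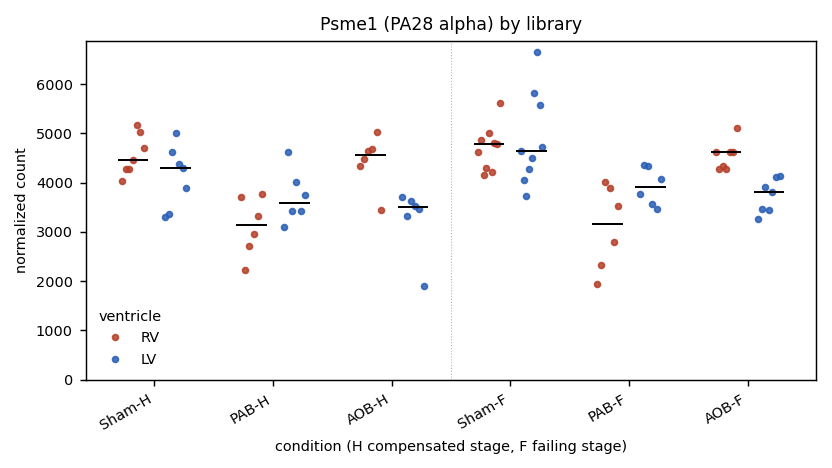
Normalized count of Psme1 (y axis, from 0) in each library by condition (x axis), with RV and LV points in separate colours and bars at the medians. The RV libraries of PAB-H (2234 to 3765) and of PAB-F (1937 to 4012) lie below all RV libraries of Sham-H (4022 to 5170) and of Sham-F (4151 to 5625).

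Between RV PAB-H and RV Sham-H, Psme1 was the only one of the 46 that passed, against 4.50% of all genes, and it did not pass without RV PAB-H replicate 2 (log2 difference -0.47, adjusted p = 0.131). Without RV PAB-H replicate 6, 2 genes passed. Psme1 and Psma1 were the 2 genes whose groups did not overlap, against 3.24% of all genes. The median log2 difference was -0.12 over the 46 genes and 0.00 over all genes, and 6 of the 46 had an unadjusted p under 0.05. The immunoproteasome genes had log2 differences of 0.50 ± 0.28 for Psmb8 (adjusted p = 0.307), 0.19 for Psmb9 and 0.06 for Psmb10, none of which passed. All 6 fibroblast markers tested were higher in RV PAB-H, where their share of the counts ran from 0.0327% to 0.283%, against 0.0222% to 0.0431% in RV Sham-H, and their part in the result for Psme1 was not tested.

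Between RV PAB-F and RV Sham-F, 3 proteasome genes were lower after PAB and none was higher, against 11.1% of all genes (7.66% higher, 3.42% lower). Beside Psme1 these were the ATPase genes Psmc5 at -0.35 ± 0.11 (adjusted p = 0.0376) and Psmc2 at -0.32 ± 0.10 (adjusted p = 0.0317). Psmc5 ran from 767 to 1223 normalized counts (median 979.6) in RV PAB-F and from 1056 to 1424 (median 1274) in RV Sham-F, and Psmc2 from 891 to 1521 (median 1194) and from 1344 to 1701 (median 1479.9). Both pairs of groups overlapped, and Psme1 was the only one of the 46 that did not, against 2.71% of all genes. Without RV PAB-F replicate 1, 2 or 5, Psme1 alone passed, and with raw library totals 2 were higher and 1 was lower. With upper quartile factors 1 was higher and 3 were lower, and without the 3 libraries that stood apart 2 were higher and 5 were lower. None of those 3 libraries is in RV PAB-F or RV Sham-F.

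The median was -0.16 over the 46 genes and 0.02 over all genes, and 39 of the 46 and 5722 of the 11954 genes tested had a difference below 0. Psmb5, Psmb6 and Psmb7 had -0.27 (adjusted p = 0.191), -0.14 and -0.19. The immunoproteasome genes had 0.55 ± 0.26 for Psmb8 (adjusted p = 0.158), 0.62 ± 0.26 for Psmb9 (adjusted p = 0.0992) and 0.39 ± 0.21 for Psmb10 (adjusted p = 0.221), and did not pass. Of the markers, 4 of 6 fibroblast, 4 of 8 macrophage and 2 of 6 endothelial genes were higher in RV PAB-F, with endothelial shares of 0.0826% to 0.189% against 0.0595% to 0.102% in RV Sham-F, and their part was not tested. In the unloaded LV of the same rats none of the 46 passed in PAB-H (0% of all genes) or in PAB-F (0% of all genes), where 0 and 6 of the 46 had an unadjusted p under 0.05. Whether the response to PAB in the F stage differed between the ventricles was tested directly, and none of the 46 passed, against 0.351% of all genes, with 6 under an unadjusted p of 0.05 and a median difference of -0.20. DESeq2 gave 0 in each of these 3 comparisons as well.

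In the LV loaded by AOB, none of the 46 passed in the compensated stage, against 0.0167% of all genes, and DESeq2 gave 0 as well. An unadjusted p under 0.05 was found for 11, a count that was not set against the share of all genes. Psmb5 had -0.49 ± 0.15 (adjusted p = 0.0983) there, with 989 to 2046 normalized counts (median 1840) in LV AOB-H and 1847 to 3623 (median 2143) in LV Sham-H. Psmb6 had -0.34 (adjusted p = 0.172), Psmb7 -0.39 (adjusted p = 0.113) and Psmb8 0.38 (adjusted p = 0.421).

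Between LV AOB-F and LV Sham-F, 3 proteasome genes were higher and 3 were lower after AOB, against 12.9% of all genes (8.54% higher, 4.35% lower). The higher ones were Psmd5 at 0.43 ± 0.13 (adjusted p = 0.0183), Psmc1 at 0.36 ± 0.12 (adjusted p = 0.0296) and Psmd13, a subunit gene of the lid, at 0.23 ± 0.06 (adjusted p = 0.00874). The lower ones were Psmb5 at -0.41 ± 0.13 (adjusted p = 0.0322), Psme1 at -0.39 ± 0.12 (adjusted p = 0.0195) and Psmc3 at -0.33 ± 0.10 (adjusted p = 0.0217). Psmb5 ran from 1885 to 3379 normalized counts (median 2572) in LV AOB-F against 2626 to 5285 (median 3161) in LV Sham-F, and Psme1 from 3268 to 4142 (median 3801) against 3733 to 6642 (median 4645). The groups of all 6 overlapped. The median was 0.08 over the 46 genes and 0.04 over all genes. An unadjusted p under 0.05 was found for 20 of the 46, a count that was not set against the share of all genes.

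These calls depended on single libraries and on the tool. The count was 3 without LV AOB-F replicate 1, 6 or 7, 14 without LV AOB-F replicate 3 or LV Sham-F replicate 3, and 13 without LV AOB-F replicate 4. DESeq2 gave 7 higher and 3 lower, raw library totals 9 higher and 2 lower, and the fit without the 3 libraries that stood apart 9 higher and 4 lower. None of those 3 libraries is in LV AOB-F or LV Sham-F. The immunoproteasome genes did not pass, with -0.12 for Psmb8 (adjusted p = 0.767), -0.25 for Psmb9 (adjusted p = 0.502) and -0.35 for Psmb10 (adjusted p = 0.238), and neither did Psmb6 (-0.33, adjusted p = 0.0775) and Psmb7 (-0.09). Of the macrophage markers 4 of 8 were higher in LV AOB-F, with shares of 0.00586% to 0.0528% against 0.00541% to 0.0187%. The highest shares were 0.0437% in LV AOB-F replicate 6 and 0.0528% in replicate 7, which had the lowest cardiac myocyte shares of the group (4.29% and 4.59%). Of the fibroblast, endothelial and mural cell markers 1 each was higher, against 8.54% of all genes. The part of these cells was not tested. In the unloaded RV of the same rats none of the 46 passed in AOB-H (0% of all genes) or in AOB-F (0.0669% of all genes), where 0 and 1 of the 46 had an unadjusted p under 0.05. The direct test of whether the response to AOB differed between the ventricles gave none of the 46, against 0% of all genes, with 6 under an unadjusted p of 0.05. In these 3 comparisons too DESeq2 gave 0.

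Other genes of the pathway were taken from a list of 35 with roles in ubiquitin supply, proteasome assembly, transcription of the subunit genes, shuttling and deubiquitination, of which 28 were tested. In the RV of Sham-F against the LV, 15 of them were higher and 7 were lower, against 74.3% of all genes (35.6% higher, 38.6% lower). Uba6, a ubiquitin-activating enzyme gene, differed by 1.98 ± 0.22 (adjusted p = 7.15e-13). The deubiquitinase genes of the regulatory particle, Usp14 and Uchl5, differed by 1.96 ± 0.18 (adjusted p = 8.75e-15) and 1.65 ± 0.21 (adjusted p = 8.37e-11). The counts were 12 higher and 6 lower in PAB-F, 13 and 6 in AOB-F, and 6 higher and 0 lower in Sham-H, and 0 passed in PAB-H and in AOB-H. Of all genes 61.1%, 67.1%, 21%, 0.125% and 7.98% passed in these conditions. In the LV of Sham rats 6 were higher and 16 were lower at 31 than at 11 weeks, among them Usp14 at -1.30 ± 0.19 and Uba6 at -1.27 ± 0.22, and in the RV 0 passed. Of all genes 57.4% passed with age in the LV (27.8% higher, 29.6% lower) and 0.0502% in the RV.

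Under load, against 3.42% of all genes lower and 7.66% higher in RV PAB-F, 5 of the 28 were lower and none was higher. Among them Ubqln2, which codes for a shuttle of ubiquitinated substrates, differed by -0.50 ± 0.16 (adjusted p = 0.033) and Nsfl1c, a cofactor of the segregase p97, by -0.30 ± 0.10 (adjusted p = 0.0423). In LV AOB-F 4 were higher and none was lower, against 8.54% and 4.35% of all genes. The 4 included Vcp, which codes for p97, at 0.52 ± 0.16 (adjusted p = 0.0223), the transcription factor gene Nfe2l2 at 0.43 ± 0.14 (adjusted p = 0.0364) and the shuttle gene Rad23b at 0.36 ± 0.11 (adjusted p = 0.0261). None passed in the other banding comparisons.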

How the data were processed

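RNA-seq of cardiac myocytes from both ventricles of 41 rats was used (82 libraries). The authors trimmed the reads (Trim Galore), aligned them to Rnor6.0 (STAR) and counted them per gene (featureCounts, without reads that overlap several genes), and they deposited raw counts, normalized counts and FPKM. The deposited normalized counts are raw counts divided by 1 size factor per library (DESeq2 1.28.1), so that they are a depth-scaled signal. The normalized counts printed here were instead scaled from the raw counts with TMM factors. The authors' FPKM divide further by gene length and by the total. Whether counting used strand is not given in the sources used here.

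Raw counts were tested with edgeR 4.0.16 in R 4.3.3 (filterByExpr, TMM factors, quasi-likelihood fit of 12 group means over all 82 libraries, adjusted p by Benjamini-Hochberg over 11954 genes, threshold 0.05), after the scripts were tested on simulated data. Counts of proteasome genes under an unadjusted p of 0.05 are given without the share of all genes, so that they show no excess over it. A prior count of 2 was used in log2 CPM. The SE is the log2 difference divided by the root of the F statistic. Members and gene lists were chosen with earlier results of these data known. Named were the catalytic subunit genes, up to 3 called genes per direction and comparison, and the 3 highest and 3 lowest by mean FPKM. Other genes were named after their values were seen. The labels tie the RV and LV libraries of a number to 1 animal. After subtraction of the group means these pairs correlated with a median of 0.186 to 0.297 per condition within animals and of -0.0686 to -0.0142 between animals, so that a fit with the animal as a block was added. PAB, AOB and Sham rats of a number were different animals. Alternatives were DESeq2 1.42.0, other scaling factors, no filter, sex as a covariate, gene length correction, the replicate block, the criteria of the study (absolute log2 difference over 1, unadjusted p at most 0.01, mean normalized count over 50) and leaving out each library. The fits without 3 libraries together and the length correction without the block were chosen after seeing the data. No 2 libraries were alike within counting noise (lowest chi-square per gene 4.55). The labels give no batch. Psmg3 was not analysed here. Promoters were matched by gene identifier to RefSeq (GRCr8).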

Additional observations from a re-analysis of the deposited data

Results flagged for a closer look

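In 10 measures over 12 groups (120 tests), 25 values from 12 libraries lay far from the others of their group by Dixon's test at the 95% level, which chance alone gives in about 1 of 20 groups. LV AOB-H replicate 6 had 989 normalized counts of Psmb5, 567 of Psmb6, 185 of Psmb8 and 1893 of Psme1, and an immunoproteasome level of 16.6% of the standard catalytic level. RV AOB-H replicate 6, from the same animal, had 1354 of Psmb5, 1548 of Psmb7 and 119 of Psmb9, and 6.91%. LV PAB-H replicate 2 had 175 of Psmb8, 290.5 of Psmb9, 365 of Psmb10 and 215 of Psma4, an alpha less beta balance of -1.73 and an immunoproteasome level of 10.5%. LV PAB-F replicate 5 had 594 of Psma4 and a balance of -0.85. Psmb7 was at 3191 in LV Sham-H replicate 4 and at 1768 in RV Sham-H replicate 2, and Psmb6 was at 971 in RV PAB-H replicate 2. Psmb10 was at 141 in RV AOB-H replicate 3 and at 838 in LV Sham-F replicate 7. Psmb8 was at 96.1 in RV Sham-F replicate 2, Psme1 at 5118 in RV AOB-F replicate 7, and the immunoproteasome level at 12.4% in RV PAB-F replicate 1.

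The RV less LV difference of the Sham rats differed between the ages by the interaction term of edgeR for 25 proteasome genes, among them Psma4 (1.40), Psmd1 (1.39), Psmd14 (1.23), Psmb9 (-1.57), Psmb10 (-1.21) and Psmb8 (-1.21 on the log2 scale).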

How the results depend on the processing

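By the criteria of the study (log2 fold over 1, unadjusted p at most 0.01, mean count over 50), 0 proteasome genes passed in RV PAB-H, RV PAB-F, LV AOB-F and between the ventricles of Sham-H and AOB-H, 13 between those of Sham-F (27.7% of all genes), 11 of PAB-F (17%) and 12 of AOB-F (21.9%), 10 with age in the LV (8.05%) and, with no count minimum, 12 in the change of the ventricle difference with age (9.91%). RV PAB-F gave 5 with gene length correction, 1 with the replicate number as a block and 7 without the 3 libraries that stood apart. LV AOB-F gave 10 with DESeq2, 11 with library totals and 13 without the 3 libraries. Between the ventricles, Sham-H gave 9 with library totals, 8 with upper quartile factors or sex, 3 without a filter or without the 3 libraries, 12 with the animal block and 13 with the block and length correction together. AOB-H gave 0 with library totals or without a filter and 4 with the block, with or without length correction. The PAB-F response differed between the ventricles for 1 gene with the block and length correction together. The block moved no other count by over 1.5 times. No named difference reversed, but library totals turned the split of RV PAB-F from 0 higher and 3 lower to 2 and 1, and between the ventricles of Sham-H library totals (3 and 6) and upper quartile factors (3 and 5) turned that of 3 higher and 2 lower. Leaving out 1 library gave 0 to 2 genes in RV PAB-H, 1 to 4 in RV PAB-F, 3 to 14 in LV AOB-F, 0 to 10 between the ventricles of Sham-H, 0 to 2 of AOB-H, 36 to 39 of Sham-F, 33 to 37 of PAB-F and 27 to 35 of AOB-F, 31 to 38 with age in the LV and 22 to 30 in its difference between the ventricles. The comparisons with 0 genes stayed at 0. The numbers of banded and Sham rats marked different animals, whose same-numbered deviations had median correlations of -0.103 to 0.160. Of 55 named differences that passed, 22 values under other settings and 78 without 1 library no longer passed, and 510 and 860 still did. Library totals moved the median of all genes by -0.129 between the ventricles of AOB-F and by -0.102 of AOB-H, and by less than 0.1 elsewhere. The causes were not tested. Depth limits Psmc3ip (7 to 62 raw counts per library), Psmd10 (11 to 58) and Psmb8 (28 to 374) most.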

Other observations

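Antigen presentation and interferon genes (38 listed, 36 tested) were set beside the immunoproteasome genes. In the RV of Sham-F against the LV, 22 of them were lower and 9 were higher, against 38.6% of all genes lower and 35.6% higher. The peptide transporter genes Tap1 and Tap2 differed by -2.27 ± 0.24 (adjusted p = 5.73e-13) and -2.10 ± 0.25 (adjusted p = 1.54e-11), and Tapbp, which codes for the tapasin that links them to MHC class I, by -1.59 ± 0.14 (adjusted p = 1.15e-15). The MHC class I gene RT1-CE1 differed by -2.62 ± 0.44 (adjusted p = 1.95e-07), Ube2l6 by -2.47 ± 0.28 (adjusted p = 3.18e-12) and the antiviral gene Oas1a by -2.74 ± 0.36 (adjusted p = 2.99e-10). Not all went that way, since the class I light chain gene B2m differed by 0.29 ± 0.12 (adjusted p = 0.0199). With age in the LV of Sham rats 16 were higher and 9 were lower, with Tap1 at 1.09 ± 0.25, Tap2 at 1.29 ± 0.26, Tapbp at 0.89 ± 0.15 and B2m at -0.31 ± 0.12, and in the RV 0 passed. Of all genes 27.8% were higher and 29.6% lower with age in the LV, and 0.0502% passed in the RV.

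Between the ventricles, 10 of the 36 were lower and 2 were higher in the RV of Sham-H, 10 were lower and 0 higher in AOB-H, 16 lower and 11 higher in PAB-F and 23 lower and 6 higher in AOB-F. Of all genes 11.4%, 6.41%, 29% and 35.1% were lower in these conditions, and 9.62%, 1.57%, 32.1% and 32% were higher. Under load, 2 were higher in RV PAB-H (Mx1 at 1.29 ± 0.35, adjusted p = 0.0227, and Gbp2 at 0.94 ± 0.29, adjusted p = 0.0408), 3 in RV PAB-F, among them Gbp2 at 1.13 ± 0.27 (adjusted p = 0.0032) and the class I gene RT1-A2 at 0.82 ± 0.28 (adjusted p = 0.0445), and 6 in LV AOB-F, and none was lower in these 3 comparisons. Of all genes 3.91%, 7.66% and 8.54% were higher there.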
